A study of Mus musculus with 9 samples.

Results

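The genes described here encode the matrix metalloproteases (MMPs), the ADAM and ADAMTS proteases with their ADAMTS-like (ADAMTSL) relatives, and the tissue inhibitors of metalloproteases (TIMPs). They were taken by symbol from the table of ribosome-footprint counts, which gave 84 of its 36410 rows: 23 MMPs, 33 ADAMs, 19 ADAMTS, 5 ADAMTSL and 4 TIMPs. The counts came from 9 Ribo-seq libraries of immortalized mouse striatal lines of C57/BL6 strain, with 3 libraries each of STHdhQ7/Q7 (control), STHdhQ7/Q111 (HD-het) and STHdhQ111/Q111 (HD-homo) cells. The control line carries knock-in Htt exon 1 with 7 glutamine codons on both alleles, the HD-het line has 111 on 1 allele, and the HD-homo line has 111 on both. All lines were incubated with cycloheximide for 10 min before harvest, and RNA of the 80S monosome fraction between 26 and 32 nt was sequenced. Each genotype was represented by 1 line, so genotype and line cannot be told apart. The libraries came from 3 rounds of culture, so the p-values measure the spread between these cultures and not between animals or between independently derived lines.

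Zinc metalloproteases of these families cut proteins outside the cell or at its surface. MMPs are made as inactive zymogens and degrade collagens, laminins and other matrix proteins, and the membrane-type MMPs also activate other MMPs. ADAMs release the outer parts of membrane proteins such as growth factor precursors, Notch and the amyloid precursor protein, ADAMTS enzymes process procollagens and cut proteoglycans, and ADAMTSL proteins resemble them but lack the protease domain. TIMPs bind the active site of these enzymes, and in the brain the balance between both is known for its part in synaptic remodelling, myelin turnover and the blood-brain barrier.

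Footprints of 43 of the 84 genes were numerous enough for testing, 24 had some counts but were too low, and 17 had no count in any of the 9 libraries. Library totals ran from 22504543 to 41888701 counts, at which 3 counts correspond to 0.0714 to 0.142 counts per 1000000 (CPM, on TMM-scaled totals of the tested genes). The untested genes were unevenly spread over the families. Of 21 ADAMs known mainly from testis and epididymis, only Adam5 was tested and 13 were at 0, and the highest count of any other was 3 in 1 library. All 4 TIMPs, all 5 ADAMTSL genes and all 6 membrane-type MMPs were tested. The untested genes with the highest counts in any library were Adamts8 with 28, Adamts3 with 20, Adam23 and Mmp12 with 19 each, and Adam11 with 12. Adam23 and Adam11 encode neural ADAMs without protease activity, and Mmp12 encodes the macrophage elastase.

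Most of the tested genes carried more footprints in HD-het cells than in the other lines. Against control, 34 of 43 were higher in HD-het cells and 4 were lower, at an adjusted p under 0.05 of edgeR's quasi-likelihood test. Over all 12678 genes tested, 31.0% were higher and 29.1% lower in that comparison. The median log2 fold change was 1.58 for the 43 genes and 0.02 for all genes. Changes of at least 2-fold that passed the test numbered 30 upward and 4 downward, beside 13.9% and 6.91% of all genes. The 4 lower genes were Adam8, Adamts1, Adamts5 and Mmp25, and Adam15, Adamts7, Adamts14, Adamtsl5 and Mmp9 did not pass. The filter on low counts asked for enough counts in 3 libraries only. Adam5, Adamts16, Adamtsl2, Mmp13, Mmp17, Mmp24 and Timp4 would not have met it without their HD-het libraries, nor Mmp25 without control. Their higher level in that line was therefore partly set by the filter. They are kept in the counts here and in those by line and pattern below.

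HD-homo cells differed from control in fewer of the genes and mainly downward. Of the 43, 16 were lower and 7 higher, against 22.3% of all genes lower and 23.3% higher, and the median log2 fold change was -0.21 beside 0.02 for all genes. The higher genes were Mmp2, Mmp19, Adam8, Adam19, Adamts1, Adamts14 and Adamtsl5. Between the HD lines, 35 of the 43 were lower in HD-homo than HD-het cells and 6 were higher, beside 32.8% and 34.6% of all genes, with a median of -1.66 against 0.02. The comparisons share libraries, so they are not independent of each other.

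Taken by pattern, 32 of the 43 genes were higher in HD-het than in both other lines, beside 21.8% of all genes, and 3 were lower than in both, beside 21.9%. In HD-homo cells 16 were lower than in both other lines, beside 15.4% of all genes, and 5 were higher than in both, beside 15.0%. These 5 were Mmp2, Adam8, Adamts1, Adamts14 and Adamtsl5. The test over the lines together passed for 42 of the 43 genes, all but Mmp9, and for 78.4% of all genes. The mean was highest in HD-het cells for 35 of the 43 genes, in HD-homo for 6 and in control for 2. Over all genes tested, the highest mean lay in HD-het for 38.6%, in HD-homo for 36.1% and in control for 25.3%. Because these are counts from whole cultures, fewer cells of a type and less RNA per cell cannot be told apart, and footprint counts alone do not tell more mRNA from more ribosomes per mRNA.

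**Figure D1:**
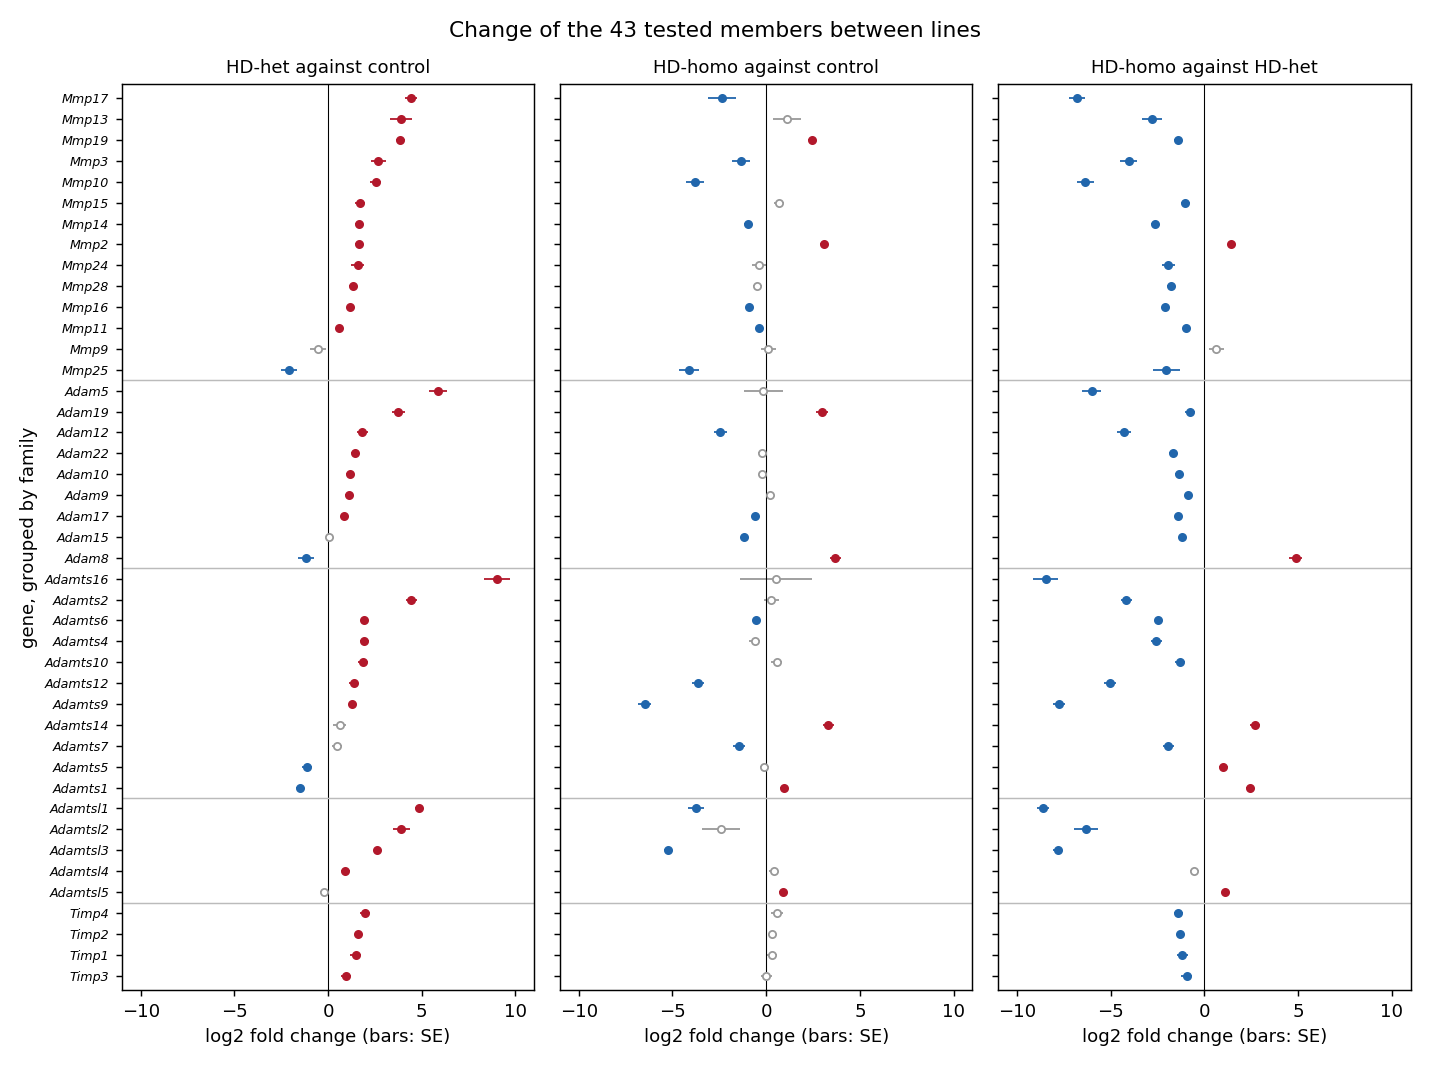
Log2 fold change of footprints for each of the 43 tested genes, with panels for HD-het over control, HD-homo over control and HD-homo over HD-het, with the families separated by lines and bars giving the standard error. Filled points passed the test (red higher, blue lower) and open grey points did not, with 34 red points in the first panel, 7 in the second and 6 in the third.

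The libraries of a line ranked alike for many of these genes. Control replicate 3 had the lowest CPM of its line for 35 of the 43 genes, compared with 36.4% of all genes tested. HD-het replicate 3 had the highest of its line for 35 of the 43, compared with 42.1% of all genes. HD-homo replicate 2 had the lowest of its line for 29 of the 43, compared with 37.3% of all genes. HD-homo replicate 3 had the highest of that line for 25, compared with 29.7%. The count of genes higher in HD-het than control cells was 35 without control replicate 3 and 35 without HD-het replicate 3. The part of these libraries in single results is given below where leaving them out changed a call.

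The TIMPs took up more of the footprints than all the other genes here together in every library. Together they held 0.144 ± 0.0266% of the control counts (SD, n = 3), 0.369 ± 0.0503% of those from HD-het and 0.172 ± 0.0383% of those from HD-homo cells. Of the counts on all 84 genes they made up 65.3 to 66.8% (control libraries), 61.4 to 65.5% (HD-het) and 68.9 to 73.7% (HD-homo). The 84 genes together took 0.218 ± 0.0426%, 0.580 ± 0.0604% and 0.241 ± 0.0467% of the counts.

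**Figure D2:**
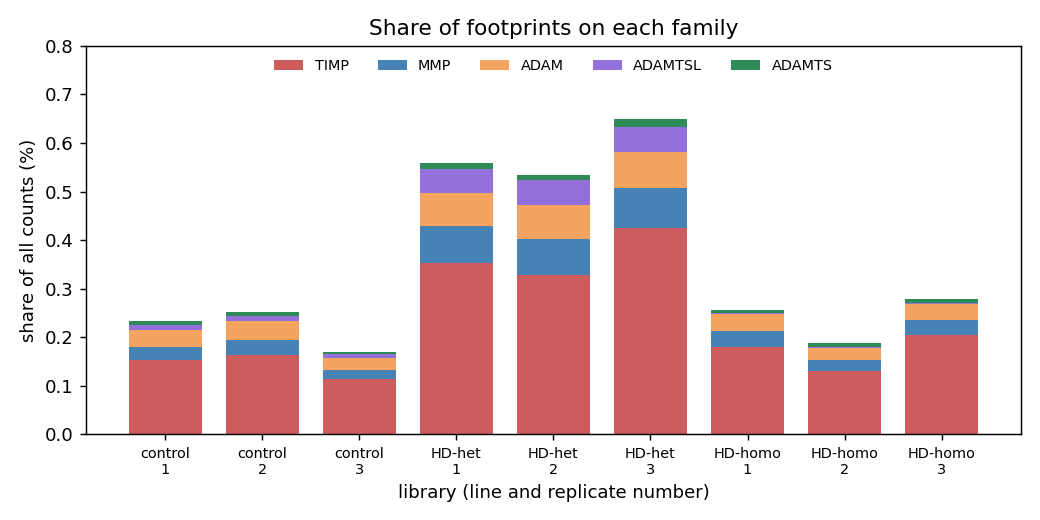
Share of all counts in each library that fell on the TIMP, MMP, ADAM, ADAMTSL and ADAMTS genes, stacked, in percent, for the 3 libraries of each line. The HD-het bars reach 0.534 to 0.649%, above every control bar (0.170 to 0.251%) and every HD-homo bar (0.189 to 0.278%), and the ADAMTSL layer is hardly visible in HD-homo cells.

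Timp1, a secreted inhibitor of broad range that lies on the X chromosome (chrX:20870166-20874737, GRCm38), had 612, 691 and 416 CPM in the control libraries, 1306, 1330.3 and 2129 in HD-het and 816, 389 and 905 in HD-homo. All HD-het libraries were above all others, and the control and HD-homo libraries overlapped. The log2 fold change was 1.47 ± 0.30 (SE) in HD-het against control (adjusted p = 0.00150) and -1.17 ± 0.30 in HD-homo against HD-het (adjusted p = 0.00477). HD-homo did not pass against control (0.30 ± 0.30, adjusted p = 0.447). Timp2 (chr11:118301061-118355411), which both inhibits MMP2 and helps its activation at the cell surface, had 556, 534 and 432 CPM in the control libraries, 1644, 1308 and 1698 in HD-het and 642, 639.9 and 604 in HD-homo. The lines did not overlap for Timp2. HD-het was higher than control by 1.61 ± 0.12 on the log2 scale (adjusted p = 1.28e-06), while HD-homo against control gave 0.31 ± 0.12 and lay at the threshold (adjusted p = 0.0515). That value passed with total counts (adjusted p = 0.0222), with DESeq2 (0.0455), with the 6 libraries alone (0.0445) and without HD-het replicate 2 (0.0378).

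Timp3 (chr10:86300412-86349505), which binds to the matrix and also inhibits ADAM17 and aggrecanases, had 379.9, 411 and 259.9 CPM in the control libraries, 634, 650.1 and 751 in HD-het and 311, 207 and 539.7 in HD-homo. HD-het was above both other lines in every library, and HD-homo replicate 3 stood well above the other HD-homo libraries. The log2 fold changes were 0.95 ± 0.28 against control (adjusted p = 0.0125), 0.01 ± 0.28 for HD-homo against control (adjusted p = 0.983) and -0.94 ± 0.28 between the HD lines (adjusted p = 0.0113). Timp4 (chr6:115244444-115252205) was the rarest, with 0.344, 0.238 and 0.301 CPM in the control libraries, 1.06, 1.18 and 1.13 in HD-het and 0.334, 0.459 and 0.532 in HD-homo. HD-het exceeded control by 1.96 ± 0.27 (adjusted p = 8.46e-05), and HD-homo fell by 1.38 ± 0.25 on the log2 scale from there (adjusted p = 5.29e-04). Timp4 had 8 to 12 counts in the control and HD-homo libraries, and would not have been tested without its HD-het libraries. All 4 inhibitors were thus higher in HD-het than in either other line, and HD-homo passed against control for none of them in the edgeR fit of all 9 libraries with TMM, while Timp2 passed there at an unadjusted p under 0.05, with DESeq2 and in the other edgeR fits named above. Timp1, Timp3 and Timp4 lie within Syn1, Syn3 and Syn2, and the means of these hosts were at most 3.67, 0.103 and 0.257 CPM in any line.

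Per kilobase of coding sequence Timp1, Timp2 and Timp3 also led, and Timp4 ranked 31 of 43 (control), 30 (HD-het) and 26 (HD-homo). In control cells Timp1 had 931 ± 230.2 CPM per kb (SD, n = 3), Timp2 769 ± 101, Timp3 553 ± 126 and Mmp14, next in order, 111 ± 26.8. The ranges of Timp1 and Timp2 overlapped in every line, and in HD-homo cells so did those of Timp1 (633 to 1472) and Timp3 (327 to 853). In control cells those of Adam10 at 47.2 ± 11.96 and Adam9 at 43.2 ± 10.5, below Mmp14, overlapped as well. Within each control library Timp1 was above Timp2 and Adam10 above Adam9, while in HD-het replicate 1 and HD-homo replicate 2 Timp2 was above Timp1. In HD-het cells the order down to Adam9 was the same, with Timp1 at 2583 ± 761, Timp2 at 2348 ± 320.0, Timp3 at 1071 ± 100.1 and Mmp14 at 349.5 ± 14.3 CPM per kb. In HD-homo cells Mmp2 at 74.6 ± 15.6 CPM per kb came after the 3 TIMPs, with Mmp14 at 56.7 ± 13.6 behind it. The ranges of Mmp2 and Mmp14 overlapped, although Mmp2 was above Mmp14 within each HD-homo library. The lowest of the tested genes in control cells was Adamts16, at 0.00900 ± 0.0105 CPM per kb.

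**Figure D3:**
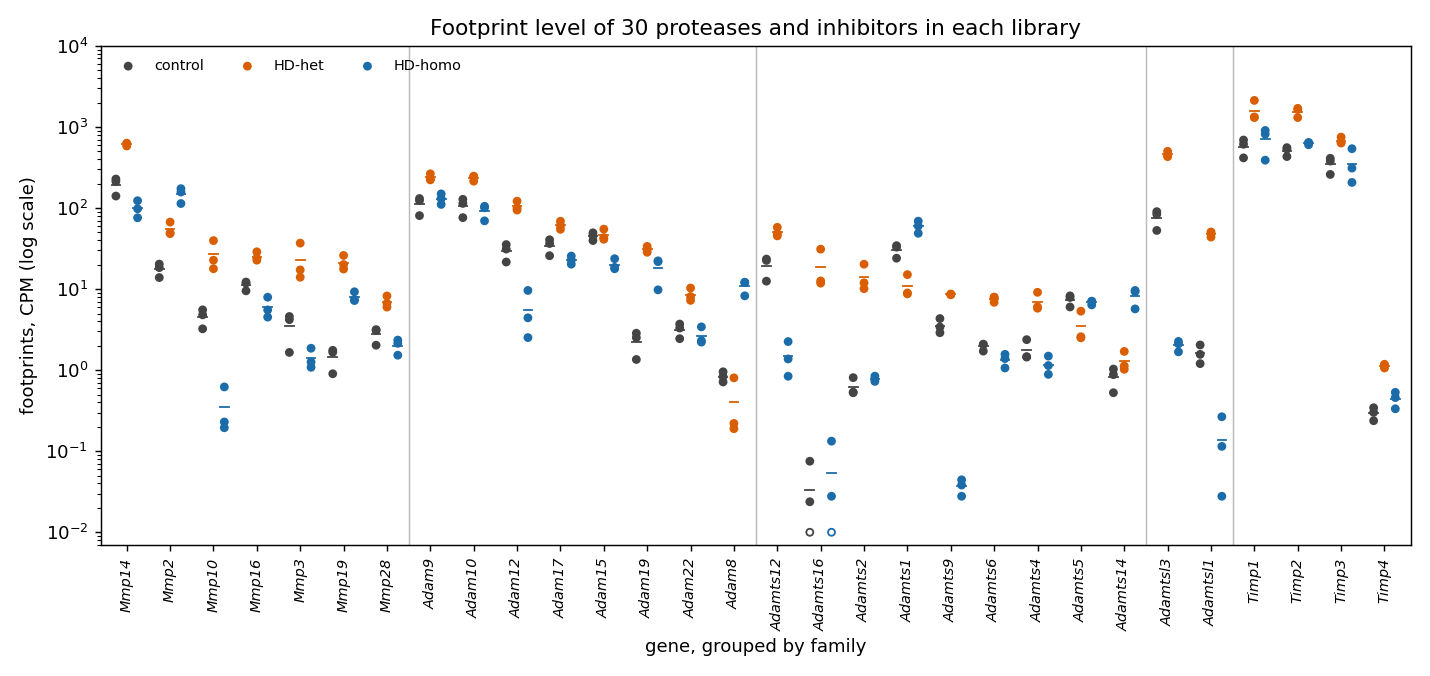
Footprint level in CPM on a log scale for 30 genes in each of the 9 libraries (points, 3 per line) with the line mean as a short bar, grouped as MMP, ADAM, ADAMTS, ADAMTSL and TIMP from left to right. Open points at the bottom are libraries at 0. HD-het is the highest line for most genes, HD-homo for Mmp2, Adam8, Adamts1 and Adamts14, and the HD-homo points of Adamtsl3, Adamtsl1 and Adamts9 lie far below both other lines.

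The membrane-type MMPs are anchored at the cell surface, where Mmp14 activates pro-MMP2. Mmp14 (chr14:54431598-54442456) had 213, 228 and 141 CPM in the control libraries, 615, 583 and 632 in HD-het and 123, 75.9 and 98.0 in HD-homo, with no overlap between the lines. It was higher in HD-het than control by 1.65 ± 0.19 (adjusted p = 2.67e-05), lower in HD-homo than control by a log2 change of -0.97 ± 0.19 (adjusted p = 0.00155), and -2.62 ± 0.20 between the HD lines (adjusted p = 6.29e-07). Mmp14 made up 75.2 to 77.6% of all MMP counts from control, 72.0 to 79.7% of those from HD-het and 31.7 to 39.6% of those from HD-homo libraries. Mmp16, another transmembrane member (chr4:17853072-18117479), had 12.2, 11.9 and 9.52 CPM in the control libraries, 22.7, 24.1 and 28.8 in HD-het and 5.54, 4.51 and 7.94 in HD-homo, again without overlap. Its changes were 1.17 ± 0.18 in HD-het (adjusted p = 1.95e-04) and -0.91 ± 0.19 in HD-homo (adjusted p = 0.00228) against control. Mmp15, Mmp17 and Mmp24 were also higher in HD-het than control cells, by 1.70 ± 0.25, 4.43 ± 0.32 and 1.58 ± 0.33, at means of 3.26 ± 0.732, 3.10 ± 0.559 and 0.926 ± 0.217 CPM in HD-het cells. In HD-homo against control Mmp17 passed as lower (adjusted p = 0.0222), but not with DESeq2 (0.0508) or without control replicate 1 (0.0627), HD-homo replicate 1 (0.0557) or HD-homo replicate 2 (0.0679). Mmp15 did not pass there (adjusted p = 0.0597), except as higher with total counts (0.0410) or without HD-homo replicate 1 (0.0399). Mmp25, which is known from leukocytes, ran the other way, with 0.993, 0.999 and 0.640 CPM in the control libraries, 0.114, 0.193 and 0.331 in HD-het and 0.0835, 0 and 0.0444 in HD-homo. It was lower in HD-het (-2.10 ± 0.42, adjusted p = 0.00117) and at least 7.95-fold lower in HD-homo than in control cells (adjusted p = 9.64e-05), where no HD-homo library had more than 3 counts. All 6 membrane-type genes were lower in HD-homo than HD-het cells, of which Mmp25 (adjusted p = 0.0282) did not pass with the replicate block (0.0535) or without HD-het replicate 2 (0.0579) or 3 (0.0881) or HD-homo replicate 2 (0.0758) or 3 (0.0607).

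The gelatinases differed from each other. Mmp2 (chr8:92827290-92853421), which degrades denatured collagen and collagen of basement membranes, had 18.4, 20.3 and 13.9 CPM in the control libraries, 48.3, 49.5 and 67.1 in HD-het and 158, 114 and 173 in HD-homo. The 3 lines formed separate steps. It was higher than control by 1.64 ± 0.19 in HD-het (adjusted p = 2.78e-05) and by 3.07 ± 0.20 in HD-homo cells (adjusted p = 3.00e-07), and higher in HD-homo than HD-het by 1.43 ± 0.19 (adjusted p = 3.82e-05). Mmp2 was the only one of the 14 tested MMPs that passed as a rise from HD-het to HD-homo cells. Mmp9, the gelatinase most studied in synaptic plasticity, had 2.41, 2.36 and 0.602 CPM in the control libraries, 0.949, 1.18 and 1.70 in HD-het and 2.20, 1.72 and 1.95 in HD-homo. The control range held those of both HD lines, and every HD-homo library was above every HD-het library by a small margin. No comparison of Mmp9 passed, with log2 changes of -0.53 ± 0.41, 0.11 ± 0.39 and 0.64 ± 0.41 (adjusted p = 0.282, 0.839 and 0.186). Without control replicate 3, the lowest library, HD-het was lower than control (-0.92, adjusted p = 0.00990) and HD-homo higher than HD-het (0.64, adjusted p = 0.0312).

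A cluster of 10 MMP genes lies on chromosome 9 (chr9:7272514-7699585, GRCm38), with Mmp13, Mmp12, Mmp1b, Mmp3, Mmp1a, Mmp10, Mmp8, Mmp27, Mmp20 and Mmp7 in this order. These are secreted collagenases, stromelysins, an elastase and a matrilysin, and several are classical targets of the AP-1 transcription factors. The bases before the RefSeq starts were searched for the AP-1 motif TGANTCA, which reads the same on both strands, and for TATAAA on either strand, and the motifs did not overlap in the stretches shown. Of the 10 genes, 8 had an AP-1 match within 250 bases before a start, beside 7.82% of 27025 genes, and 7 had TATAAA, beside 14.3%. Per promoter, 6.75% of all 32851 held the AP-1 match and 12.4% TATAAA, and 12 of 58 promoters of 53 genes of these families held the AP-1 match (20.7%). The N of the motif admits any base. In Mmp20, Adam20 and Adam25 the match read TGAATCA, and the other matches of these families had C or G in the middle. The neighbouring genes of the cluster are related copies, so their matches are not independent. The 100 bases before the start of 5 of the genes are shown to place the motif: the 3 tested ones, Mmp12 as the untested one with most counts, and Mmp8 without a match. Capitals mark the matches on the strand shown, and the Mmp12 stretch belongs to the second of its 2 listed starts.
Mmp13 (chr9:7272414-7272513, plus strand): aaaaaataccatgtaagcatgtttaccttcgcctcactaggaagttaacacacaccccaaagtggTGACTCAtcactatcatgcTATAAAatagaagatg
Mmp12 (chr9:7347274-7347373, plus strand): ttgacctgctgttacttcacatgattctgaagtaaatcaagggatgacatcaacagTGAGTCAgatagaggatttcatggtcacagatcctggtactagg
Mmp3 (chr9:7445722-7445821, plus strand): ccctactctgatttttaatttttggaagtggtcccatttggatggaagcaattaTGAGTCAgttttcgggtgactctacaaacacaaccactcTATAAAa
Mmp10 (chr9:7502242-7502341, plus strand): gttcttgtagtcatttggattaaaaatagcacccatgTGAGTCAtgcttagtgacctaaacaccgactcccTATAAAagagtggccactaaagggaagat
Mmp8 (chr9:7558329-7558428, plus strand): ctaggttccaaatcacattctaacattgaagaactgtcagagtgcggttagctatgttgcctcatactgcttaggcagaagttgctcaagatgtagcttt

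In the sequences above the AP-1 match begins 35 bases before the start in Mmp13, 44 in Mmp12, 46 in Mmp3 and 63 in Mmp10. The absence of a match in Mmp8 concerns only these letters in this window. Of the 43 tested genes 28 had a listed promoter, and among these Adam19 was the one outside the cluster with a match. It began 131 bases before the start of a listed promoter (chr11:46055734-46056033), which lies inside the gene span given below and not at its first base.

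Footprints of the tested cluster genes rose in HD-het cells. Mmp3 (stromelysin, chr9:7445822-7455975) had 4.20, 4.59 and 1.66 CPM in the control libraries, 14.0, 17.2 and 36.9 in HD-het and 1.08, 1.26 and 1.86 in HD-homo. Mmp10 (the other stromelysin here, chr9:7502342-7510242) had 4.81, 5.54 and 3.24 CPM in the control libraries, 17.8, 22.7 and 39.7 in HD-het and 0.195, 0.229 and 0.621 in HD-homo. In both, HD-het replicate 3 was the highest of all libraries and control replicate 3 the lowest of the control libraries. Mmp3 was higher in HD-het than control by 2.67 ± 0.40 (adjusted p = 1.72e-04) and Mmp10 by 2.54 ± 0.31 (adjusted p = 3.83e-05). Mmp10 was lower in HD-homo than control by a log2 change of -3.81 ± 0.48 (adjusted p = 6.50e-05), with no overlap, and by -4.42 without HD-homo replicate 3. Mmp3 gave -1.37 ± 0.48 there (adjusted p = 0.0379), the ranges overlapped, and the adjusted p was 0.0919 without control replicate 1, 0.134 without control replicate 2, 0.123 without HD-homo replicate 1, 0.0878 without HD-homo replicate 2 and 0.0520 with the replicate number as a block. Between the HD lines the changes were -4.04 ± 0.46 and -6.35 ± 0.44, the latter -6.96 without HD-homo replicate 3.

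Mmp13, the main interstitial collagenase of the mouse (chr9:7272514-7283333), had 0.267, 0.190 and 0.150 CPM in the control libraries, 1.63, 2.15 and 5.58 in HD-het and 0.223, 0.344 and 0.843 in HD-homo. Against control, HD-het was higher by 3.89 ± 0.60 (adjusted p = 1.99e-04), and by 3.20 without HD-het replicate 3, and HD-homo against control did not pass (1.11 ± 0.77, adjusted p = 0.263). Mmp12 had 5, 8 and 19 counts in the HD-het libraries, 1, 5 and 0 in control, and 1, 0 and 0 in HD-homo. Mmp8, the neutrophil collagenase, had 2, 6 and 4 counts in HD-het and at most 1 elsewhere. Both were left out by the filter on low counts, and with no filter both passed in HD-het against control. Mmp20 and Mmp7 were at 0 in all libraries, and Mmp1a, Mmp1b and Mmp27 never exceeded 2 counts. Genes beside the cluster did not all move with it: in HD-het against control cells Birc2 did not pass, Dcun1d5 and Cfap300 were lower, and Tmem123, Birc3, Yap1, Cep126 and Dync2h1 were higher.

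**Figure D4:**
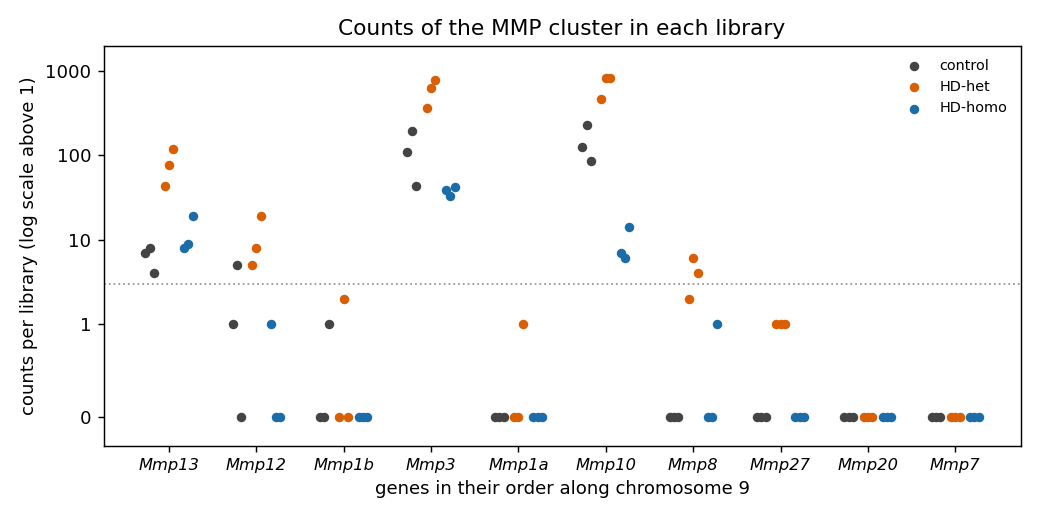
Counts per library (log scale above 1) of the 10 MMP genes on chromosome 9 in their order along the chromosome, with 3 points per line and a dotted line at 3 counts. Mmp13, Mmp3 and Mmp10 stand above 3 counts in every library and are highest in HD-het cells, Mmp12 and Mmp8 reach at most 19 and 6 counts, and the others lie at or near 0.

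The remaining tested MMPs lie elsewhere in the genome. Mmp11, a stromelysin activated inside the cell by furin, had 13.1, 13.5 and 12.6 CPM in the control libraries, 19.4, 18.1 and 21.6 in HD-het and 9.85, 9.48 and 10.5 in HD-homo. Its libraries were tight and the lines separate, with 0.59 ± 0.10 in HD-het (adjusted p = 3.88e-04) and -0.40 ± 0.10 in HD-homo (adjusted p = 0.00808) against control. Mmp19 (chr10:128790910-128800827), which cuts basement membrane proteins, had 1.76, 1.67 and 0.903 CPM in the control libraries, 17.7, 20.1 and 26.0 in HD-het and 7.40, 7.23 and 9.27 in HD-homo, and the lines did not overlap. It was higher than control in both HD lines, by 3.86 ± 0.23 (adjusted p = 2.47e-07) and 2.44 ± 0.23 (adjusted p = 6.80e-06), and lower in HD-homo than HD-het by a log2 change of -1.42 ± 0.19 (adjusted p = 5.90e-05). Mmp28 (epilysin, chr11:83440768-83463040) had 3.09, 3.16 and 2.03 CPM in the control libraries, 6.68, 6.00 and 8.23 in HD-het and 2.14, 1.53 and 2.35 in HD-homo. In HD-het it exceeded control by 1.32 ± 0.21 (adjusted p = 2.41e-04). HD-homo overlapped control and did not pass (-0.47 ± 0.23, adjusted p = 0.111), except without control replicate 3 (-0.64, adjusted p = 0.0373).

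Among the ADAMs, the shedding enzymes Adam10 and Adam17 are the best known. Adam10 (chr9:70678944-70780229), the alpha-secretase of the amyloid precursor protein and the enzyme that makes the ligand-dependent cut in Notch, had 114, 128 and 76.2 CPM in the control libraries, 215, 242 and 248 in HD-het and 105, 69.5 and 101 in HD-homo. HD-het was above both other lines, which overlapped. The log2 changes were 1.14 ± 0.19 in HD-het against control (adjusted p = 3.47e-04), -0.21 ± 0.19 in HD-homo against control (adjusted p = 0.397) and -1.35 ± 0.19 between the HD lines (adjusted p = 7.62e-05). Adam17 (chr12:21323509-21373632), which releases tumour necrosis factor and several EGF receptor ligands, had 36.5, 40.6 and 25.8 CPM in the control libraries, 54.6, 61.0 and 68.8 in HD-het and 25.6, 20.3 and 22.8 in HD-homo. HD-het exceeded control by 0.84 ± 0.16 (adjusted p = 8.07e-04) and HD-homo was lower than control by a log2 change of -0.58 ± 0.16 (adjusted p = 0.0114), a call that was lost without control replicate 2 (adjusted p = 0.0557). Its HD-homo and control ranges almost met. Adam9 (chr8:24949611-25017040) had 124, 131 and 80.7 CPM in the control libraries, 223, 229 and 265 in HD-het and 149.5, 111 and 131 in HD-homo. The rise in HD-het was 1.09 ± 0.17 (adjusted p = 2.20e-04) and did not pass in HD-homo against control (0.22 ± 0.17, adjusted p = 0.312).

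The meltrins Adam12 and Adam19, named for their role in muscle cell fusion and later tied to shedding of EGF family ligands and neuregulins, differed in HD-homo cells. Adam12 (chr7:133883199-134225097) had 31.2, 35.4 and 21.6 CPM in the control libraries, 100.2, 94.4 and 121 in HD-het and 4.42, 2.52 and 9.62 in HD-homo. Adam19 (chr11:46054502-46147347) had 2.52, 2.85 and 1.35 CPM in the control libraries, 30.9, 28.5 and 33.7 in HD-het and 21.8, 9.79 and 22.3 in HD-homo. Both were higher in HD-het than control, by 1.84 ± 0.32 (adjusted p = 4.75e-04) and 3.76 ± 0.32 (adjusted p = 3.30e-06). In HD-homo against control Adam12 gave -2.45 ± 0.35 (adjusted p = 1.82e-04; -3.06 without HD-homo replicate 3) and Adam19 2.97 ± 0.32 (adjusted p = 1.91e-05). The smaller change of Adam19 between the HD lines (-0.78 ± 0.27, adjusted p = 0.0235) did not pass without HD-het replicate 1 (-0.79, adjusted p = 0.0529) or HD-het replicate 3 (-0.72, adjusted p = 0.0632).

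Adam8 and Adam15 differed from this pattern. Adam8 (chr7:139978932-139995207), a protease known from leukocytes and glia, had 0.955, 0.833 and 0.715 CPM in the control libraries, 0.190, 0.220 and 0.804 in HD-het and 12.02, 8.26 and 12.2 in HD-homo. The HD-homo libraries were far above all others, while HD-het replicate 3 lay within the control range. HD-homo was higher than control by 3.69 ± 0.31 (adjusted p = 2.34e-06) and higher than HD-het by 4.87 ± 0.36 (adjusted p = 4.77e-07). The lower level in HD-het than control (-1.18 ± 0.45, adjusted p = 0.0396) did not pass without control replicate 1 (adjusted p = 0.0894), control replicate 2 (0.0790), HD-het replicate 1 (0.132) or HD-het replicate 2 (0.173). Without HD-het replicate 3 the change was -2.01 (adjusted p = 0.00128), and that of HD-homo against HD-het was 5.68. Adam15 (chr3:89339640-89350028), whose disintegrin domain binds integrins, had 45.6, 49.5 and 39.7 CPM in the control libraries, 43.2, 41.2 and 54.9 in HD-het and 23.7, 18.5 and 17.8 in HD-homo. Control and HD-het overlapped (0.04 ± 0.14, adjusted p = 0.804), and HD-homo was below both (-1.16 ± 0.14 against control, adjusted p = 5.75e-05).

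Adam22, a neural ADAM without protease activity that serves as a receptor of the secreted protein LGI1 at synapses, had 3.70, 3.31 and 2.45 CPM in the control libraries, 8.09, 7.26 and 10.3 in HD-het and 3.42, 2.22 and 2.31 in HD-homo. It was higher in HD-het than control by 1.43 ± 0.21 (adjusted p = 1.48e-04), while HD-homo overlapped control (-0.23 ± 0.23, adjusted p = 0.428). Adam5, a gene known from sperm, had 0, 0.0238 and 0.150 CPM in the control libraries, 3.49, 3.66 and 2.74 in HD-het and 0.0556, 0.0765 and 0 in HD-homo. It stood at or under 3 counts in every HD-homo library, and was at least 29.9-fold lower there than in HD-het cells (adjusted p = 1.48e-06). Control replicate 3 was the only control library above 3 counts, and the change of HD-het against control was 5.86 ± 0.49 (adjusted p = 2.72e-06), or 7.46 without that library. Adam5 lies on chromosome 8 beside Adam9, Adam3, Adam18 and Adam32 (chr8:24602246-25017040), of which Adam3 and Adam32 never exceeded 1 count and Adam18 had none.

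The proteoglycan-cleaving ADAMTS, which cut aggrecan and versican, split by gene. Adamts1 (chr16:85793827-85803113) had 32.9, 34.4 and 24.1 CPM in the control libraries, 8.73, 8.97 and 15.1 in HD-het and 48.8, 68.9 and 59.9 in HD-homo, without overlap between the lines. It was lower in HD-het (-1.49 ± 0.22, adjusted p = 1.39e-04) and higher in HD-homo (0.96 ± 0.21, adjusted p = 0.00294) than control, and 2.45 ± 0.22 between the HD lines (adjusted p = 2.45e-06). Adamts5 (chr16:85858157-85901125), the main aggrecanase of mouse cartilage and the next gene on chromosome 16, had 8.25, 7.87 and 6.02 CPM in the control libraries, 2.51, 2.59 and 5.34 in HD-het and 7.04, 6.39 and 7.10 in HD-homo. It was also lower in HD-het (-1.12 ± 0.25, adjusted p = 0.00258), while HD-homo lay inside the control range (-0.11 ± 0.24, adjusted p = 0.735). For both, HD-het replicate 3 was the highest HD-het library and still below every control library. No other tested gene lay within 500000 bases of the pair.

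Adamts4 and Adamts9 of the same class rose in HD-het cells. Adamts4 (chr1:171250129-171262267) had 1.45, 2.38 and 1.47 CPM in the control libraries, 5.81, 6.05 and 9.13 in HD-het and 1.14, 1.49 and 0.887 in HD-homo. Its rise in HD-het was 1.94 ± 0.25 (adjusted p = 6.23e-05), and HD-homo did not pass against control (-0.61 ± 0.29, adjusted p = 0.109). Adamts9 (chr6:92772699-92944450), which cuts versican, had 3.40, 4.33 and 2.90 CPM in the control libraries, 8.62, 8.69 and 8.51 in HD-het and 0.0278, 0.0382 and 0.0444 in HD-homo. Each HD-homo library held 1 count. HD-het was higher than control by 1.27 ± 0.15 (adjusted p = 3.50e-05), and HD-homo was at least 32.1-fold lower than control (adjusted p = 4.05e-08) and at least 78.0-fold lower than HD-het (adjusted p = 3.81e-09).

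The procollagen N-propeptidases Adamts2 and Adamts14 trim fibrillar procollagens before they assemble. Adamts2 (chr11:50602085-50807573) had 0.535, 0.809 and 0.527 CPM in the control libraries, 11.96, 10.1 and 20.3 in HD-het and 0.779, 0.727 and 0.843 in HD-homo. Adamts14 (chr10:61197112-61273419) had 1.03, 0.880 and 0.527 CPM in the control libraries, 1.02, 1.13 and 1.70 in HD-het and 9.62, 5.70 and 9.31 in HD-homo. The level of Adamts2 stood out in HD-het cells and that of Adamts14 in HD-homo cells. Adamts2 was higher in HD-het than control by 4.43 ± 0.30 (adjusted p = 6.25e-07) and did not pass in HD-homo (0.27 ± 0.38, adjusted p = 0.592). Adamts14 was higher in HD-homo than control by 3.32 ± 0.29 (adjusted p = 2.96e-06) and exceeded HD-het by 2.70 ± 0.27 (adjusted p = 5.85e-06), and did not pass in HD-het (0.62 ± 0.33, adjusted p = 0.126). Adamts3, the third of the class, was untested with at most 20 counts.

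Adamts16 was near absent outside HD-het cells. It had 0, 0.0238 and 0.0752 CPM in the control libraries, 11.8, 12.6 and 31.1 in HD-het and 0.0278, 0 and 0.133 in HD-homo, and no control or HD-homo library held more than 3 counts. HD-het cells were at least 186-fold above control (adjusted p = 1.38e-06) and at least 168-fold above HD-homo (adjusted p = 7.90e-07). HD-het replicate 3 was well above the other HD-het libraries, and without it the bounds were 123-fold and 111-fold. Adamts12 (chr15:11064773-11349232), which cuts cartilage oligomeric matrix protein, had 22.6, 23.5 and 12.5 CPM in the control libraries, 45.3, 47.9 and 57.8 in HD-het and 2.25, 0.841 and 1.37 in HD-homo. It was higher in HD-het (1.36 ± 0.25, adjusted p = 6.53e-04) and lower in HD-homo (-3.66 ± 0.32, adjusted p = 3.01e-06) than control, and no lines overlapped.

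Adamts6 and Adamts10 encode related enzymes that act on fibrillin microfibrils. Adamts6 (chr13:104286518-104496695) had 1.72, 2.09 and 2.07 CPM in the control libraries, 6.87, 7.98 and 7.90 in HD-het and 1.39, 1.57 and 1.06 in HD-homo, and its rise in HD-het was 1.94 ± 0.16 (adjusted p = 2.60e-06). Its lower level in HD-homo than control was small (-0.54 ± 0.18, adjusted p = 0.0318) although the ranges did not overlap. It did not pass with total counts (adjusted p = 0.0503), in the 6 libraries alone (0.0625), without control replicate 2 (0.107) or 3 (0.0795), or without HD-homo replicate 1 (0.0548) or 3 (0.0931). Adamts10 was higher in HD-het by 1.86 ± 0.25 (adjusted p = 8.48e-05) at a mean of 2.13 ± 0.233 CPM, and Adamts7, which like Adamts12 cuts cartilage oligomeric matrix protein, passed only as lower in HD-homo (-1.46 ± 0.31 against control, adjusted p = 0.00292), and also as higher in HD-het without control replicate 2 (0.86, adjusted p = 0.0148).

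The ADAMTSL genes were sparse in HD-homo cells, where they held 0.00164 ± 0.000382% of the counts, beside 0.00872 ± 0.00212% of the control and 0.0509 ± 0.00136% of the HD-het counts. In control and HD-het cells most of this was Adamtsl3 (chr7:82335399-82614450), which had 83.9, 90.3 and 52.9 CPM in the control libraries, 448, 431 and 501 in HD-het and 2.11, 1.68 and 2.26 in HD-homo. It was higher in HD-het than control by 2.60 ± 0.17 (adjusted p = 6.22e-07), and HD-homo was lower by a log2 change of -5.23 ± 0.22 (adjusted p = 9.34e-09) from control and -7.83 ± 0.24 from HD-het (adjusted p = 6.94e-10). Adamtsl3 made up 85.7 to 87.6% of ADAMTSL counts from control, 86.6 to 88.9% of those from HD-het and 11.7 to 14.7% of those from HD-homo libraries. Adamtsl1 (chr4:85513852-86428390) had 1.57, 2.05 and 1.20 CPM in the control libraries, 48.9, 50.7 and 43.8 in HD-het and 0.0278, 0.115 and 0.266 in HD-homo. It was higher in HD-het by 4.86 ± 0.21 (adjusted p = 2.93e-08) and lower in HD-homo (-3.74 ± 0.42, adjusted p = 2.38e-05) than control, and no lines overlapped for either gene. With 1, 3 and 6 counts of Adamtsl1 in the HD-homo libraries, its HD-homo change was -3.12 without HD-homo replicate 1 and -4.58 without HD-homo replicate 3.

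Adamtsl2, which binds fibrillin and a latent TGF-beta binding protein, had 0.191, 0.190 and 0.0376 CPM in the control libraries, 2.73, 2.42 and 1.51 in HD-het and 0, 0.0765 and 0 in HD-homo. It was higher in HD-het than control (3.90 ± 0.45, adjusted p = 2.67e-05) and at least 20.1-fold lower in HD-homo than HD-het cells (adjusted p = 5.19e-06). Adamtsl4 was higher in HD-het by 0.92 ± 0.25 (adjusted p = 0.00748) at a mean of 13.3 ± 1.29 CPM, and did not pass in HD-homo against either line, except against control without HD-homo replicate 2 (0.66, adjusted p = 0.00937) and against HD-het without HD-homo replicate 3 (-0.70, adjusted p = 0.0404). Adamtsl5 passed in HD-homo only, higher than control by 0.88 ± 0.19 (adjusted p = 0.00287) and than HD-het by 1.11 ± 0.20 (adjusted p = 3.68e-04). The 5 genes therefore had no common direction in HD-homo cells: against control, 2 were lower, 1 was higher and 2 did not pass. Of the latter, Adamtsl2 passed as lower without control replicate 3 (adjusted p = 0.0363) or HD-homo replicate 2 (0.0270).

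Other genes of the same system were followed in 5 lists. Over all genes, 31.0% were higher and 29.1% lower in HD-het than control, 23.3% and 22.3% in HD-homo against control, and 34.6% and 32.8% in HD-homo against HD-het. Of 18 tested activators and surface regulators (plasminogen activators and their serpins, proprotein convertases, Reck, Lrp1 and the tolloid proteases), 14 were higher and 1 lower in HD-het than control, 5 and 3 in HD-homo against control, and 1 and 13 in HD-homo against HD-het. Their median log2 fold changes were 1.12, -0.04 and -0.84, beside 0.02 for all genes in each comparison. The counts in HD-homo against control were near the shares of all genes. The largest rise in HD-het cells was that of Serpine2 (protease nexin), at 3.00 ± 0.827, 169 ± 25.1 and 6.26 ± 2.30 CPM (control, HD-het, HD-homo). Lrp1, the endocytic receptor that clears MMPs and TIMPs, had 351 ± 88.4, 1224 ± 171 and 152 ± 44.3 CPM.

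Of 17 tested ADAMTS substrates and microfibril partners, 13 were higher in HD-het than control and the other 4 did not pass, 8 were higher and 2 lower in HD-homo, and 5 were higher and 11 lower in HD-homo than HD-het (edgeR). The medians were 1.89, 0.45 and -1.65. The biglycan gene Bgn had 10.4 ± 0.667 CPM (control), 2527 ± 261 (HD-het) and 1036 ± 305 (HD-homo). Versican, the substrate shared by Adamts1, Adamts4, Adamts5 and Adamts9, was lower in HD-homo than control (Vcan, -2.20 ± 0.21), and the aggrecan gene Acan was higher in HD-homo than HD-het (3.58 ± 0.33).

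Of 29 tested genes for proteins that ADAMs shed, 18 were higher and 5 lower in HD-het than control, 6 and 16 in HD-homo against control, and 7 and 21 between the HD lines, with medians of 0.88, -1.01 and -1.38. The 6 higher in HD-homo than control were near the share of all genes. Tnfrsf1b, a receptor of tumour necrosis factor, had 0.615 ± 0.181, 23.5 ± 0.808 and 9.62 ± 2.42 CPM. The EGF receptor ligand genes had no common direction. Areg had 254 ± 46.8, 87.2 ± 27.4 and 25.5 ± 8.18 CPM, while Ereg rose, with means of 20.3, 81.5 and 198 CPM. In HD-homo against control Tgfa was higher like Ereg, and Btc was lower like Areg. Of 7 tested partners of Adam10 and Adam17 (TspanC8 tetraspanins, iRhoms and Frmd8), 3 were higher and 3 lower in HD-het, 1 and 4 in HD-homo, and 1 and 3 between the HD lines (medians 0.04, -0.32 and -0.26). For so few genes, the partner counts in HD-het were near the shares of all genes (31.0% higher and 29.1% lower). Of 14 AP-1, ETS and RUNX factors, 3 were higher and 2 lower in HD-het, 2 and 6 in HD-homo, and 1 and 6 between the HD lines (medians 0.00, -0.24 and -0.54). In HD-het against control both counts of these factors were below the shares of all genes. Fosl1, the gene of this list with the largest rise between the HD lines, had 236 ± 8.68, 111 ± 14.2 and 259 ± 33.6 CPM.

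The lines were labelled striatal, and the markers of striatal projection neurons were low but mostly present. Of 12, Drd1 and Drd2 were at 0 in all libraries, Ppp1r1b (DARPP-32) had means of 12.04, 5.18 and 10.55 CPM (control, HD-het, HD-homo) and Penk of 1.42, 0.824 and 2.92, and together they had 9.59 to 18.9 CPM (control), 5.83 to 8.96 (HD-het) and 7.71 to 18.5 (HD-homo). The sum of 12 mesenchymal markers was 4464 to 8472 CPM (control), 29219 to 41441 (HD-het) and 8999 to 12639 (HD-homo), highest in HD-het cells like most of the proteases. Most of it was Col1a1 and Fn1, and other members were highest in HD-homo cells, with means of 24.0, 88.9 and 1027 CPM for Col1a2, 102, 364 and 1087 for Col6a1, 3.81, 6.85 and 155 for Pdgfra and 7.30, 11.5 and 40.6 for Dcn, while Thy1 had at most 1 count. The sum of 8 smooth muscle and pericyte markers was 4428 to 5182, 10942 to 13023 and 362 to 594 CPM, with Kcnj8 at 0. Most of it was Acta2, with means of 4100, 8388 and 268 CPM, and Tagln, with 535, 3213 and 47.5. Other members changed less in HD-homo against control, with means of 54.1, 271 and 56.3 CPM for Cspg4, 81.6, 105 and 62.4 for Myh11 and 75.8, 70.7 and 47.6 for Des. Rgs5 had at most 2 counts.

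The 12 neural precursor markers summed to 9602 to 9869 (control), 9023 to 9847 (HD-het) and 6023 to 6557 CPM (HD-homo), most of it Vim, and Gsx2 and Hes5 were at 0. Others differed more: Nes had means of 399.6, 1086 and 7.01 CPM, Sox2 51.2, 33.9 and 2.26, Pax6 17.3, 24.8 and 0.0759, and Fabp7 1.12, 22.3 and 3.04. Nes, Pax6 and Fabp7 were thus highest in HD-het cells, and Nes, Sox2 and Pax6 lowest in HD-homo. Dlx1 and Dlx2 went the other way, with means of 2.71, 1.83 and 4.02 CPM and of 9.25, 2.11 and 19.9 CPM. Both were lowest in HD-het and highest in HD-homo cells. Of the leukocytes that make Mmp8, Mmp9, Mmp25 and Adam8 elsewhere, neutrophil markers were near 0, with 3 of 6 (Mpo, S100a9 and Ltf) at 0 and sums of at most 0.248 CPM. The 9 microglia and macrophage markers summed to 2.56 to 3.63, 4.02 to 9.60 and 3.29 to 3.98 CPM, with Cx3cr1, Tyrobp and C1qa at 0, Csf1r at 0.339, 0.380 and 1.06 and Cd68, a lysosomal protein, at 2.39, 5.19 and 2.47 CPM. Of 7 endothelial markers Cldn5 was at 0 and nearly all of the sum was Flt1, with 78.1 to 113.8, 176.8 to 253.4 and 5.74 to 10.4 CPM. The 5 astrocyte and 6 oligodendrocyte markers summed to at most 1.68 and 1.11 CPM. The part of all these markers in the protease results was not tested.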

How the data were processed

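Ribosome footprints of 9 libraries (3 per line) were analysed. Per the submitters' processing notes, reads were trimmed with cutadapt and aligned with Bowtie 1.0.1 to mm10. The deposited values are raw counts per gene made by the authors, and the counting program, annotation and use of strand are not given in the sources used here. Overlapping genes such as Adam17 and Iah1 could therefore share reads. Counts were normalized with TMM and tested with edgeR 4.0.16 (R 4.3.3, limma 3.58.1) by the quasi-likelihood F test on all 9 libraries, after filterByExpr, with Benjamini-Hochberg adjustment over 12678 genes and a threshold of 0.05. Standard errors are those that the F statistic gives. The fits were tested on simulated data. Genes were taken by symbol (Mmp, Adam, Adamts, Adamtsl and Timp followed by a number). Values per library are given for the TIMPs and for genes that passed the test with a 2-fold or larger change and 5 CPM or more in the higher line, and for further genes in role order, which were chosen after their values were seen. Genes of the lists that are given with values were taken from those with the largest rise or fall of a comparison at 10 CPM or more (Fosl1 was added after its values were seen). Not all genes that met this rule are named. The genes, lists, markers and printed sequences were chosen with earlier results of these data known. Where a line had at most 3 counts in each library, a fold is a bound against 3 counts per library, which covers counting error only. Coordinates, promoters and coding lengths (longest coding sequence) come from RefSeq (GRCm38.p6) and GENCODE M21. All 84 symbols matched RefSeq, and 53 had a listed promoter. Libraries of a line differed by more than sampling noise (chi-square per degree of freedom 7.76 to 50.3). Alternatives were RLE size factors, total counts, a fit with DESeq2 1.42.0, a stricter filter (10 counts or more per library) or none, a fit of the 6 libraries of a comparison alone, a block for the replicate number, and leaving out each library.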

Additional observations from a re-analysis of the deposited data

How the results depend on the processing

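Of the 7 counts of genes called, 110 of 111 alternative values were within 1.5 times the value reported. The exception was genes lower in HD-het than control, which fell from 4 to 2 with at least 10 counts in every library, a filter that leaves fewer genes to test, Adam8 and Mmp25 not among them. Over all alternatives the genes higher in HD-het than control numbered 24 to 39 and those lower in HD-homo than control 11 to 17, and leaving out 1 library gave 34 to 37 and 13 to 17. Among the 129 changes of the 43 tested genes, 1964 alternative values kept direction and call, 27 lost a call, 14 gained one and 15 turned direction. Every turned value belonged to a change that had not passed: Adam15 in HD-het against control (-0.0113 with total counts, and from -0.111 without HD-het replicate 3 to 0.116 without control replicate 2), Adamts16 in HD-homo against control (from -0.82 without HD-homo replicate 3 to 1.45 without control replicate 3), Adam5 (from -0.638 without control replicate 2 to 1.45 without control replicate 3) and Mmp9 (from -0.276 without control replicate 3 to 0.387 without control replicate 2) in the same comparison, and Timp3 there as well (-0.0149 with no filter, -6.38e-05 with the 6 libraries alone, -0.0696 with the replicate block, and from -0.434 without HD-homo replicate 3 to 0.281 without HD-homo replicate 2). The cause was not tested. Same-numbered libraries did not deviate together (correlations of -0.356 to 0.175), so the numbers were not taken as pairs. With the replicate number as a block 34 genes were higher and 4 lower in HD-het than control, 7 and 15 in HD-homo, and the changes that lost their call were Mmp3 in HD-homo against control (adjusted p = 0.0520) and Mmp25 between the HD lines (0.0535). Of the 24 genes that the filter on low counts left out, 5 passed in HD-het against control and 7 between the HD lines with no filter, at counts too low for firm values.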
